A study of Mus musculus with 6 samples.

Results

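The genes of fibronectin (Fn1), periostin (Postn), the tenascins C and X (Tnc, Tnxb), the thrombospondins 1 to 3 (Thbs1, Thbs2, Thbs3), SPARC (Sparc), versican (Vcan) and perlecan (Hspg2) were followed by RNA-seq during the early phase of cell reprogramming. They were taken by gene symbol, as 10 of the 16982 genes in the deposited count table. RNA came from 3 libraries of Rnf20+/+ cells, labelled wild type (WT), and 3 of Rnf20-/- cells, labelled Rnf20 knockout (KO). All 6 were made on day 3 from embryonic fibroblasts (MEF) of mid-gestation C57BL/6 mouse embryos that had been infected with retroviruses carrying Oct4, Sox2, Klf4 and c-Myc (OSKM). RNF20 is a ubiquitin ligase for histone H2B. The floxed Rnf20 alleles were recombined by a tamoxifen-inducible Cre that is active in all cell types, after addition of 4-OH tamoxifen. The labels list all 6 libraries as untreated, and whether the WT cells also received 4-OH tamoxifen is not stated. The comparison asks how loss of RNF20 changes gene expression in cells that have started to reprogram.

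Infected cells were re-plated on a feeder layer of growth-arrested MEF, and the sources do not say whether feeder RNA was in the harvest. Its part in the values was not tested, and feeder fibroblasts make the same matrix genes. Nothing in the labels says that the 3 libraries of a genotype came from separate embryos or cultures, so the p-values measure the spread between these libraries, which may be technical. In RNA from mixed cells, fewer cells of a type and less RNA per cell cannot be told apart.

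Fibronectin is assembled by cells into fibrils through integrin receptors, and collagens, tenascin C and periostin attach to these fibrils. Periostin, tenascin C, the thrombospondins and SPARC are matricellular proteins, which sit in the matrix and tune adhesion, growth factor activity and matrix turnover more than they bear load. Versican and perlecan are proteoglycans that carry chondroitin sulphate and mainly heparan sulphate chains. Fibroblasts are a major source of these proteins, and reprogramming cells leave the fibroblast state for an epithelial one.

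The libraries held 20545442 to 21746898 counts, and 3 counts equal 0.142 to 0.143 CPM (counts scaled to library size, here after TMM normalization). Rnf20 was at 107, 107 and 106 CPM in WT and at 18.7, 18.5 and 16.4 CPM in KO, so that the KO mean was 16.8% of the WT mean. KO replicate 3 stood apart. The chi-square statistic per gene between its counts and those of KO replicates 1 and 2 was 92.4 and 101, against 8.57 between the latter and 6.04 to 8.92 among WT libraries. The results below are therefore also given without it.

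All 10 genes passed the filter on low counts and were tested with the quasi-likelihood test of edgeR among 13386 genes, with Benjamini-Hochberg adjustment over all of them. At an adjusted p under 0.01, 3 of the 10 rose in KO (Thbs1, Sparc and Tnc) and 0 fell, against 9.88% of all genes tested that passed, 4.98% as higher and 4.89% as lower. DESeq2 gave 4 higher and 1 lower of the 10 at the same threshold, where 13.8% and 13.1% of all genes passed. With library sizes that were not scaled by TMM, the split over all genes was 510 higher and 858 lower in place of 667 and 655, and the same counts of 3 and 0 were obtained for the 10 genes. Of the 10, 8 had a positive log2 fold change, and the median over the 10 was 0.57 against -0.00032 over all genes tested. With a threshold of 0.05 the counts were 4 higher (Thbs2 in addition) and 1 lower (Thbs3), where 16.4% and 16.6% of all genes tested passed. By an unadjusted p under 0.05, 7 genes were higher and 1 was lower, as were 22.5% and 23% of all genes tested.

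Without KO replicate 3, 7 of the 10 genes were higher in KO at an adjusted p under 0.01 and 1, Thbs3, was lower, whereas 16.4% and 16.7% of the genes tested in that fit passed in each direction. Those that did not pass were Postn and Tnxb. Leaving out a WT library instead gave 0 of the 10 past this threshold, in fits where only 0 to 3 of all genes were higher and 1 was lower. Leaving out KO replicate 1 or 2 gave 1 of the 10, with 86 and 55 of all genes higher. The 3 KO libraries lay above the 3 WT libraries in 6 of the 10 genes, below them in 1, and overlapped with them in 3. Over all genes tested, 26.6% lay above and 28.2% below without overlap.

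**Figure D1:**
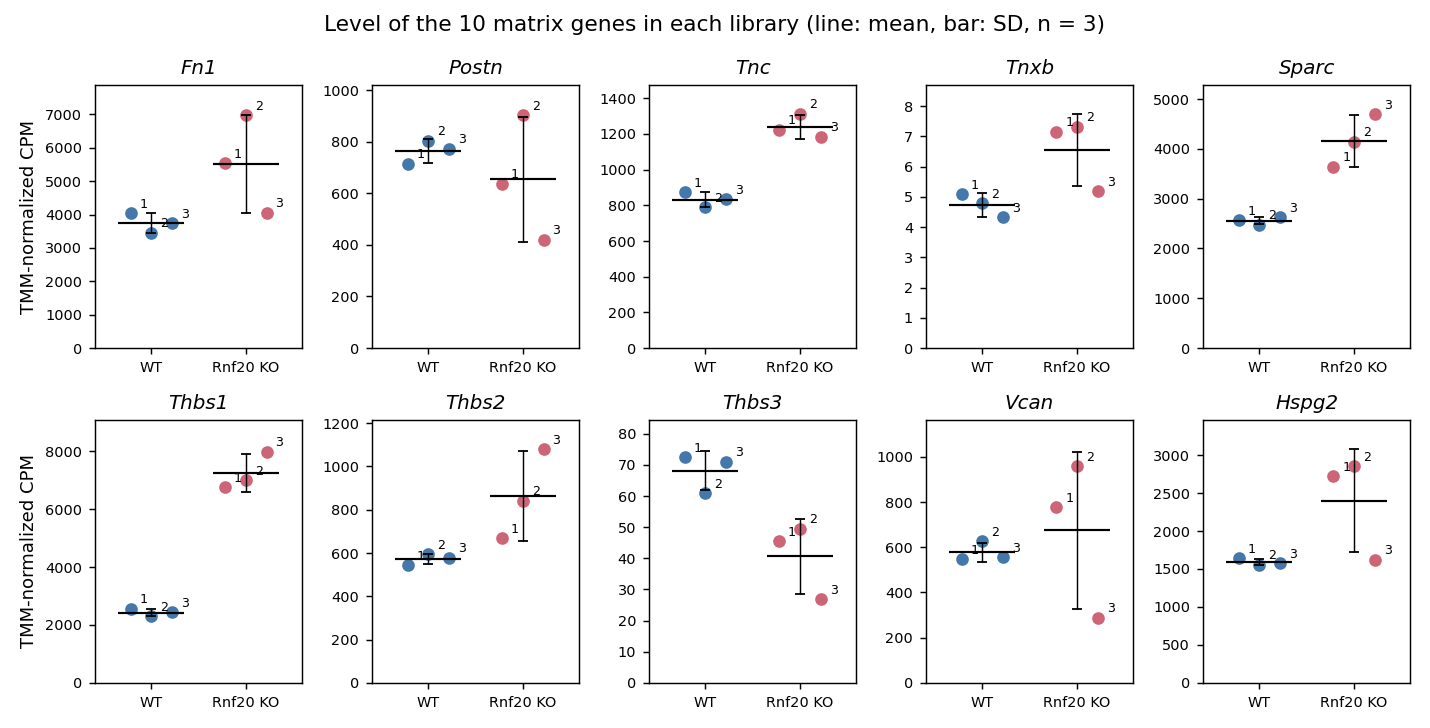
TMM-normalized CPM (vertical axes, starting at 0) of the 10 genes in each library, with WT in blue, Rnf20 KO in red, the replicate number beside each point, the mean as a line and the SD as a bar (n = 3). WT libraries lie close together in every panel, while KO replicate 3 lies below every WT library for Postn, Vcan and Thbs3 and highest of all for Thbs1, Thbs2 and Sparc.

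Thrombospondin 1, a secreted trimer that binds CD36 and CD47 and activates latent TGF-beta, had the largest difference of the set. The Thbs1 transcript (ENSMUSG00000040152) was at 2564, 2292 and 2430 CPM in WT and at 6758, 7001 and 7978 CPM in KO. Every KO library was far above every WT library, and KO replicate 3 was the highest. The fold change was 2.98, a log2 fold change of 1.58 (SE 0.11), and the adjusted p was 0.00177 (quasi-likelihood test of edgeR). Thbs1 alone of the 10 also passed the rule in the study's methods, applied here to the edgeR fit and not to the study's own FDR. That rule in addition asks for an absolute log2 fold change over 1 and an FPKM over 1. Of all genes tested, 1.5% passed it in this fit as higher and 2.08% as lower. Without KO replicate 3 the log2 fold change of Thbs1 was 1.504 (adjusted p = 5.45e-07, edgeR). With any WT library left out it was between 1.53 and 1.62, with adjusted p of 0.0161 to 0.0252.

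Thrombospondin 2 is the closest paralog of thrombospondin 1, also a trimer and an inhibitor of angiogenesis, but without the TGF-beta activating sequence. Thbs2 (ENSMUSG00000023885) was at 544, 594 and 578 CPM in WT and at 669, 843 and 1079 CPM in KO. The KO libraries were above all WT libraries but spread widely, from little above WT in replicate 1 to the highest level in replicate 3. Its log2 fold change of 0.59 (SE 0.17) did not reach the threshold of 0.01 (adjusted p = 0.0366, edgeR; 0.00375 by DESeq2). Without KO replicate 3 it was smaller and passed, at 0.40 (adjusted p = 0.00345, edgeR).

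Thrombospondin 3 belongs to the pentameric branch of the family, with cartilage oligomeric matrix protein. Thbs3 (ENSMUSG00000028047) was at 72.5, 60.9 and 71.0 CPM in WT and at 45.5, 49.5 and 26.9 CPM in KO. It was the only gene of the 10 for which all KO libraries were below all WT libraries, with KO replicate 3 lowest. Its log2 fold change was -0.75 (SE 0.22, adjusted p = 0.0419, edgeR; 0.00656 by DESeq2), and without KO replicate 3 it was -0.52 (adjusted p = 0.000726, edgeR). Exons of Thbs3 overlap those of Mtx1 on the other strand over 318 bases.

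Tenascin C is a hexamer that loosens the attachment of cells to fibronectin and marks wounds, tumour stroma and embryonic mesenchyme. Tnc (ENSMUSG00000028364) was at 874, 788 and 836 CPM in WT and at 1223, 1314 and 1184 CPM in KO. The KO libraries were close together and all above WT. Tnc rose 1.49-fold, a log2 fold change of 0.58 (SE 0.082, adjusted p = 0.00565, edgeR). Leaving out each library in turn gave 0.53 to 0.61 with adjusted p of 3.66e-05 to 0.0395, of which the value without KO replicate 3 alone was under 0.01. Tenascin X, which spaces collagen fibrils in connective tissue, was near the low end of detection. Tnxb (ENSMUSG00000033327) had 107, 101 and 91 counts in WT and 150, 154 and 109 in KO, or 4.32 to 5.09 CPM and 5.19 to 7.31 CPM. KO replicate 3 was just above the highest WT library, and the log2 fold change of 0.47 (SE 0.19) did not pass (adjusted p = 0.101, edgeR).

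SPARC (osteonectin) binds collagen on its way into fibrils and lowers cell adhesion. Sparc (ENSMUSG00000018593) was at 2573, 2480 and 2629 CPM in WT and at 3639, 4143 and 4693 CPM in KO. All KO libraries were above WT, with replicate 3 highest as for Thbs1 and Thbs2. Sparc rose 1.62-fold, with a log2 fold change of 0.70 (SE 0.12, adjusted p = 0.00782, edgeR). The range with each library left out was 0.61 to 0.79, with adjusted p of 8.09e-05 to 0.0448, and again only the fit without KO replicate 3 passed.

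Periostin binds tenascin C and fibronectin through its fasciclin domains, promotes collagen cross-linking and is a marker of activated fibroblasts. Postn (ENSMUSG00000027750) was at 714, 803 and 773 CPM in WT and at 637, 903 and 421 CPM in KO. KO replicate 2 was above all WT libraries and the other KO libraries below them. A log2 fold change of -0.22 (SE 0.25, adjusted p = 0.517, edgeR) was measured, and it was 0.013 without KO replicate 3 (adjusted p = 0.937, edgeR) and -0.53 without KO replicate 2.

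Fibronectin is the ligand of integrin alpha5 beta1 and the scaffold to which tenascin C, periostin and thrombospondin 1 bind. Fn1 (ENSMUSG00000026193) was at 4034, 3458 and 3744 CPM in WT and at 5542, 6978 and 4049 CPM in KO. The KO libraries did not overlap with WT, but KO replicate 3 was only just above the highest WT library. Its log2 fold change of 0.56 (SE 0.20) did not pass (adjusted p = 0.0697, edgeR), and it was 0.74 without KO replicate 3 (adjusted p = 0.000212, edgeR) and 0.36 without KO replicate 2.

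Among the proteoglycan core proteins, versican binds hyaluronan and swells the pericellular matrix. Vcan (ENSMUSG00000021614) was at 548, 626 and 557 CPM in WT and at 777, 960 and 288 CPM in KO. KO replicates 1 and 2 were above every WT library and KO replicate 3 was below every WT library. The log2 fold change was 0.23 (SE 0.39, adjusted p = 0.679, edgeR), and it was 0.59 without KO replicate 3 (adjusted p = 0.000424, edgeR) and -0.11 without KO replicate 2. In the deposited FPKM of Vcan, KO replicate 3 was less far from the rest, at 74.9 against 79.4 to 88.1 in WT and 105 and 132 in KO replicates 1 and 2. The size of its drop in KO replicate 3 thus depended on the measure. Division by a fixed length cannot change ratios between libraries, and the cause was not tested. Perlecan is the main heparan sulphate proteoglycan of basement membranes. Hspg2 (ENSMUSG00000028763) was at 1641, 1554 and 1579 CPM in WT and at 2722, 2853 and 1622 CPM in KO. KO replicate 3 lay among the WT libraries and the others far above. The log2 fold change was 0.59 (SE 0.21, adjusted p = 0.0680, edgeR) with all libraries and 0.81 (adjusted p = 4.17e-06, edgeR) without KO replicate 3. With a correction for gene length it was 0.64 with an adjusted p of 0.0081.

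**Figure D2:**
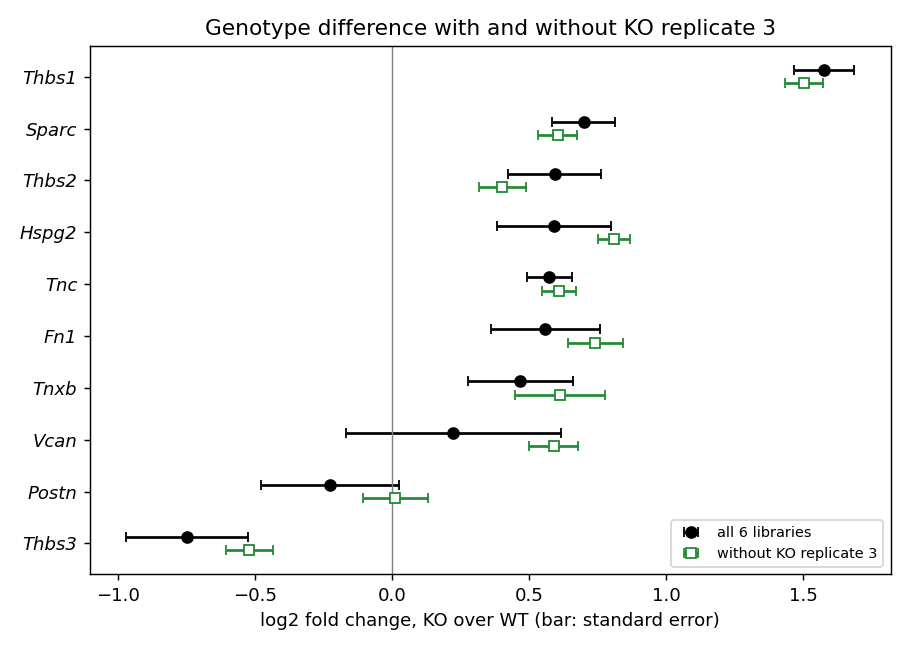
Log2 fold change of KO over WT (horizontal axis) of the 10 genes by edgeR, with its standard error as a bar, for all 6 libraries (filled circles) and without KO replicate 3 (open squares). Thbs1 lies far to the right of the others in both fits, at 1.58 and 1.504, and the bars of all 10 genes are shorter without KO replicate 3.

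In GRCm38 with the annotation of GENCODE M21, the genes lie at chr1:71585520-71653200 (Fn1, - strand), chr2:118111876-118127133 (Thbs1, +), chr3:54361109-54391037 (Postn, +), chr3:89215180-89226837 (Thbs3, +), chr4:63959785-64047015 (Tnc, -), chr4:137468769-137570630 (Hspg2, +), chr11:55394500-55423183 (Sparc, -), chr13:89655312-89742509 (Vcan, -), chr17:14665500-14694235 (Thbs2, -) and chr17:34670535-34719815 (Tnxb, +). All are protein-coding. Exons of 5 of them overlap an annotated gene on the opposite strand, by 292 bases for Fn1, 176 for Tnc, 3 for Tnxb, 208 for Thbs1 and 318 for Thbs3. The kit kept strand but the strand setting of the counting is not stated, so reads of these partners cannot be told apart. The gene length deposited with the counts was over the median of the genes tested, 3468 bases, for 7 of the 10, and the median of the 10 was 6648.5 bases.

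RefSeq windows (GRCm38.p6) upstream of the transcription start were at hand for 8 of the 10 genes. The 250 bases before the start are shown for the paralog Thbs2, for Tnc and Sparc, which rose, and for Postn, which did not. They are written 5' to 3' along the strand of the gene, with every match to the letters of a TATA box, a CCAAT box, a GC box or an AP-1 site, on either strand, in capitals.
Thbs2 (chr17:14694263-14694512, - strand): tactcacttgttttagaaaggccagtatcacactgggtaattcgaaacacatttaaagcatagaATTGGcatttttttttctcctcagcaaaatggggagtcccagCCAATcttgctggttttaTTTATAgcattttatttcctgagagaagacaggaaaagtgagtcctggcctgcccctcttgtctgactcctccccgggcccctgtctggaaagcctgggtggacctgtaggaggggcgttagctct
Tnc (chr4:64047016-64047265, - strand): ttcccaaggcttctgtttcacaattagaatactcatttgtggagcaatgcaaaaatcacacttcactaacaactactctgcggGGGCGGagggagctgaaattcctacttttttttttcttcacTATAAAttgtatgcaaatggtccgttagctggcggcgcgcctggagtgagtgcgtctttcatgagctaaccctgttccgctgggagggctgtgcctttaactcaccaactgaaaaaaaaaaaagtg
Sparc (chr11:55420081-55420330, - strand): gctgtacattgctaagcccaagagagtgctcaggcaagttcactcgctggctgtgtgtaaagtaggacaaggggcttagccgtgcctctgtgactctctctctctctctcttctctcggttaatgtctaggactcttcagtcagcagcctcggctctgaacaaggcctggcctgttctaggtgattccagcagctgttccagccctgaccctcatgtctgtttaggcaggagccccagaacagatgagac
Postn (chr3:54360857-54361106, + strand): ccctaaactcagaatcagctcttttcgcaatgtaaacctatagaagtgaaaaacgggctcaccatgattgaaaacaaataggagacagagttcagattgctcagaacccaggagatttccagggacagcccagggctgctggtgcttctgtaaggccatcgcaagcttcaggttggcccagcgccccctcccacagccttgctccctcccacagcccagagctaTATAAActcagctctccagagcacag

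The letters TATAAA stood in 3 of the 8 windows (Postn, Tnc and Thbs2) and in 12.4% of 32851 windows of all genes. In Postn they began at position -26 from the start, and in Tnc and Thbs2 at position -126. CCAAT was present in 3 windows (Thbs2, Thbs3 and Vcan) and 33.8% of all, GGGCGG in 4 (Tnc, Thbs3, Vcan and Hspg2) and 32.7% of all, and TGANTCA, the AP-1 site, in 1 (Tnxb) and 6.75% of all. Of these letters the Sparc window, which lies inside the gene span of GENCODE M21 because that span begins at another start site, held none. GGAATG, the core of a TEAD site, and the CArG box stood in 0 of the 8 windows and in 12.6% and 1.47% of all. Because the Sparc window held no match, it could share none with Tnc, which also rose, and Thbs1 had no window. The TATA letters stood in Tnc and Thbs2 as well as in Postn. A match is a description of letters and was not tested for binding.

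Levels can be compared between genes only per length, here as the deposited FPKM. In WT the mean FPKM was highest for Sparc at 1181 ± 58.9 (SD, n = 3), followed by Thbs1 at 393 ± 21.8, Fn1 at 389 ± 28.6 and Postn at 230 ± 13.01. Thbs1 and Fn1 differed by less than their spread. Tnc at 101 ± 5.23, Hspg2 at 99.5 ± 1.90 and Thbs2 at 94.4 ± 3.74 followed, and neighbours in this order overlapped, and Vcan at 83.0 ± 4.57, Thbs3 at 19.5 ± 1.84 and Tnxb at 0.353 ± 0.0293 were lowest, each apart from its neighbours. In KO the order began with Sparc at 1874 ± 233, Thbs1 at 1165 ± 109 and Fn1 at 565 ± 142, so that Thbs1 and Fn1, level in WT, no longer overlapped. Postn at 195 ± 74.1, Tnc at 151 ± 5.80, Hspg2 at 147 ± 37.6, Thbs2 at 143 ± 34.1 and Vcan at 104 ± 28.5 came next and overlapped in sequence among themselves, apart from Fn1 above and Thbs3 below. Thbs3 at 11.6 ± 3.17 and Tnxb at 0.498 ± 0.0843 were again lowest. Among the 12633 genes with FPKM, the rank of the genotype mean moved from 86 to 30 for Sparc, from 181 to 70 for Thbs1 and from 4381 to 6202 for Thbs3, where 1 is the highest.

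The 10 genes together took 1.39%, 1.29% and 1.35% of all counts in WT and 2.18%, 2.43% and 2.09% in KO. The KO mean of 2.23% ± 0.175 (SD, n = 3) was 1.66 times the WT mean of 1.34% ± 0.0497, and the libraries did not overlap (exact permutation test, two-sided, p = 0.1, the smallest that 3 against 3 libraries allow). Thbs1 held a large part of this. The other 9 genes took 1.13%, 1.06% and 1.098% in WT and 1.51%, 1.75% and 1.31% in KO, a ratio of means of 1.39.

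The balance between partners was read from counts per length. The ratio of Thbs1 to Thbs2 was 4.77, 3.91 and 4.26 in WT and 10.2, 8.41 and 7.49 in KO, without overlap, and its mean was 2.02 times as high in KO. The ratio of Postn to Fn1 was 0.459, 0.603 and 0.536 in WT and 0.298, 0.336 and 0.270 in KO, also without overlap, with a KO mean of 0.565 times the WT mean. For both of these, 3 libraries against 3 cannot go below p = 0.1 (exact permutation test, two-sided), which they reached, and p was 0.2 after Benjamini-Hochberg adjustment over the 4 ratios computed. The ratios of Tnc to Fn1 and of Sparc to Fn1 overlapped between genotypes. Tnc to Fn1 was 0.244, 0.257 and 0.252 in WT and 0.249, 0.212 and 0.330 in KO, and Sparc to Fn1 was 2.17, 2.44 and 2.39 in WT and 2.23, 2.02 and 3.94 in KO (exact permutation p = 0.9 for each). The highest value of both was in KO replicate 3.

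KO replicate 3 was set against the mean of KO replicates 1 and 2 gene by gene, as a description of libraries of 1 genotype. It was above both for 3 of the 10 genes, with log2 ratios of 0.51 for Thbs2, 0.27 for Sparc and 0.21 for Thbs1. It was below both for the other 7, by -1.59 for Vcan, -0.87 for Postn, -0.82 for Thbs3, -0.78 for Hspg2, -0.63 for Fn1, -0.47 for Tnxb and -0.099 for Tnc. Over all genes tested the median of this ratio was -0.0048, with 22.93% of them above 0.3 and 25.97% below -0.3. Of all genes tested, 2.90% had a lower ratio than Vcan, 8.60% than Postn, 9.36% than Thbs3 and 10.03% than Hspg2. The share with a lower ratio was 13.1% for Fn1, 17.6% for Tnxb and 40.98% for Tnc. It was 70.4% for Thbs1, 75.1% for Sparc and 87.5% for Thbs2. How many of all genes tested lay above both or below both was not computed. The coefficient of variation was higher in KO than in WT for all 10 genes, as it was for 74.6% of all genes tested. It ranged from 2.84% (Hspg2) to 9.25% (Thbs3) in WT and from 5.37% (Tnc) to 51.4% (Vcan) in KO, where the medians over all genes tested were 6.69% and 13.9%.

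**Figure D3:**
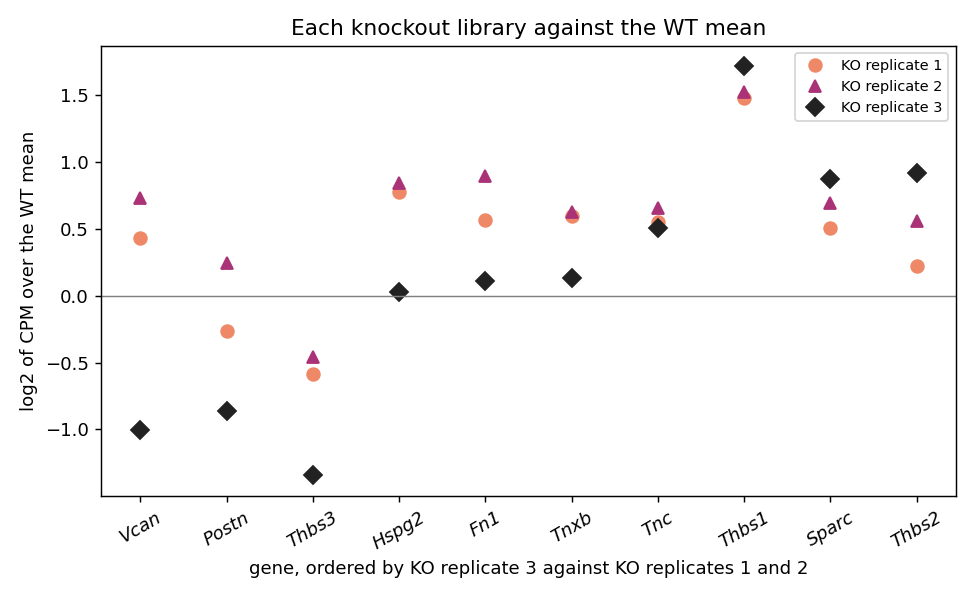
Log2 of the CPM of each KO library over the WT mean (vertical axis) for the 10 genes, ordered from left to right by KO replicate 3 against KO replicates 1 and 2. KO replicate 3 (black diamonds) is lowest of the KO libraries from Vcan to Tnc and highest for Thbs1, Sparc and Thbs2, whereas KO replicates 1 and 2 lie on the same side of the WT mean for every gene but Postn.

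Within the set the most alike profiles over the 6 libraries, by the root mean square difference of log2 CPM centred on the WT mean, were Fn1 with Hspg2 (0.103), Fn1 with Tnxb (0.138), Tnxb with Hspg2 (0.138), Thbs2 with Sparc (0.139) and Tnc with Sparc (0.154). Outside the set, among 9511 genes with a mean of at least 10 CPM, the 3 nearest to Thbs1 were Mdm2 (0.0757), Timp3 (0.0773) and Cdkn1a (0.0938). Mdm2 and Cdkn1a encode a ubiquitin ligase for p53 and a cyclin-dependent kinase inhibitor, and Timp3 a matrix-bound inhibitor of metalloproteinases. The nearest to Fn1 were Fzd6 (0.0733), Runx3 (0.0793) and Myh9 (0.0918), and to Postn Mtcl1 (0.0726), Pxdn (0.0909) and Helq (0.107). Tnc was near to Wdr1 (0.0390) and Hsd17b12 (0.0437), Thbs2 to Ttpal (0.0524), Slco2a1 (0.0565) and Kalrn (0.0711), and Sparc to Cdc42ep3 (0.0305), Mfn2 (0.0414) and Tgoln1 (0.0421). These are distances over 6 libraries of 2 genotypes, given as a description.

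The genes that work with the set were read from 5 lists. Of 85 listed genes 78 were tested, of which 9 rose and 3 fell at an adjusted p under 0.01, with a median log2 fold change of 0.17. Over all genes tested 4.98% rose and 4.89% fell, and the list counts below stand against these shares. Without KO replicate 3 the counts were 25 and 12, where 16.4% and 16.7% of all genes passed. Leaving out any WT library gave 0 and 0.

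Among receptors of these proteins, 3 of 22 rose and 0 fell, and the median log2 fold change was 0.35. DESeq2 gave 8 higher and 0 lower (13.8% and 13.1% of all genes), and at an unadjusted p under 0.05 of edgeR's quasi-likelihood test 12 were higher and 0 lower (22.5% and 23% of all genes). Itgb1, the beta1 integrin chain shared by fibronectin and tenascin receptors, was at 864, 840 and 813 CPM in WT and 1380, 1522 and 1496 CPM in KO, a log2 fold change of 0.81 (adjusted p = 0.00279, edgeR). Itgav, the alpha chain of vitronectin-type receptors that bind fibronectin and periostin, rose by 0.67 on this scale (adjusted p = 0.0060, edgeR), and the heparan sulphate carrying Sdc2 by 0.98 (adjusted p = 0.00177, edgeR). KO libraries were above WT without overlap for each of these. The thrombospondin 1 receptors Cd47 and Cd36 did not pass. Cd47 was at 124 to 145 CPM in WT and at 137, 135 and 254 CPM in KO, high in KO replicate 3 alone. Cd36 was at 2.28 to 3.89 CPM in WT and at 5.44, 3.47 and 28.7 CPM in KO, above WT in KO replicate 1 and far above it in KO replicate 3. Cd44, the hyaluronan receptor, was at 127 to 140 CPM in WT and at 243, 212 and 446 CPM in KO (log2 fold change 1.18, adjusted p = 0.0196, edgeR), and without KO replicate 3 it passed at 0.78 (adjusted p = 1.45e-05, edgeR). Without KO replicate 3, 13 receptors were higher and 0 lower, where 16.4% and 16.7% of all genes passed.

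Of the hyaluronan and versican partners, 3 of 12 rose and 1 fell (median 0.53). Has2, a hyaluronan synthase, was at 13.7, 15.6 and 12.7 CPM in WT and 27.3, 29.7 and 31.9 CPM in KO (log2 fold change 1.08, adjusted p = 0.00321, edgeR). Cemip, which takes part in hyaluronan breakdown, rose by 1.37 (adjusted p = 0.00321, edgeR). The fibulins, which bind fibronectin, versican and elastic fibres, moved in opposite directions. Fbln2 was at 924, 840 and 970 CPM in WT and 1766, 1952 and 1987 CPM in KO (log2 fold change 1.06, adjusted p = 0.00228, edgeR). Fbln1 was at 126, 114 and 128 CPM in WT and 43.9, 44.3 and 23.1 CPM in KO (log2 fold change -1.73, adjusted p = 0.00553, edgeR).

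In the list of proteases drawn up for these proteins, 2 of 14 rose and 2 fell (median -0.19). Whether each listed protease cuts these proteins was not checked. Plau, the urokinase plasminogen activator, rose by 0.95 (adjusted p = 0.00205, edgeR) and the serine protease Prss23 by 1.14 (adjusted p = 0.00243, edgeR). Lower in KO were Fap, at a log2 fold change of -1.22 (adjusted p = 0.00374, edgeR), a fibroblast surface protease, and Adamts20, at -1.099 (adjusted p = 0.00837, edgeR), a versican-cutting metalloproteinase. Fap was at 10.3 to 11.01 CPM in WT and 4.001 to 5.16 CPM in KO, and Adamts20 at 6.23 to 8.69 and 3.18 to 3.68 CPM. Of 18 enzymes that build sugar chains, Chst11, a chondroitin sulphotransferase, rose by 1.23 (adjusted p = 0.00387, edgeR), 0 fell, and the median was 0.12. Without KO replicate 3 the median was -0.021, with 3 enzymes higher and 2 lower, where 16.4% and 16.7% of all genes passed. By DESeq2 3 of these enzymes were higher and 1 was lower (13.8% and 13.1% of all genes). At an unadjusted p under 0.05 of edgeR's test 5 and 3 were so (22.5% and 23% of all genes).

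The paralogs and relatives of the set had the lowest median, -0.88 over 12 genes tested and -0.46 without KO replicate 3, although 0 passed in either direction by edgeR's quasi-likelihood test. DESeq2 gave 1 higher and 2 lower (13.8% and 13.1% of all genes). At an unadjusted p under 0.05 of edgeR's test 1 was higher and 5 were lower (22.5% and 23% of all genes). All KO libraries were below all WT libraries for 7 of the 12 (Tnn, Comp, Tgfbi, Sparcl1, Spock2, Spock3 and Agrn), where 28.2% of all genes tested were. They were above all WT libraries for 2, Smoc1 (log2 fold change 1.43) and Fstl1 (0.20), where 26.6% of all genes tested were. Spock2, a SPARC family proteoglycan, was at 26.0, 29.5 and 31.1 CPM in WT and 9.36, 8.59 and 1.81 CPM in KO (log2 fold change -2.13, adjusted p = 0.0219, edgeR). Tnn, the tenascin of bone and skin also called tenascin W, was at 49.9, 41.5 and 43.0 CPM in WT and 18.3, 17.3 and 2.48 CPM in KO (-1.82, adjusted p = 0.0585, edgeR). Tgfbi, which has fasciclin domains like periostin, was at 323, 311 and 327 CPM in WT and 197, 263 and 76.6 CPM in KO (-0.84, adjusted p = 0.142, edgeR). KO replicate 3 was lowest in each of these 3 genes. Without it all 3 passed, at -1.68 for Spock2, -1.33 for Tnn and -0.48 for Tgfbi (adjusted p of 2.7e-06, 4.62e-06 and 0.00304, edgeR). In that fit 6 relatives passed as lower and 0 as higher, against 16.7% and 16.4% of all genes.

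**Figure D4:**
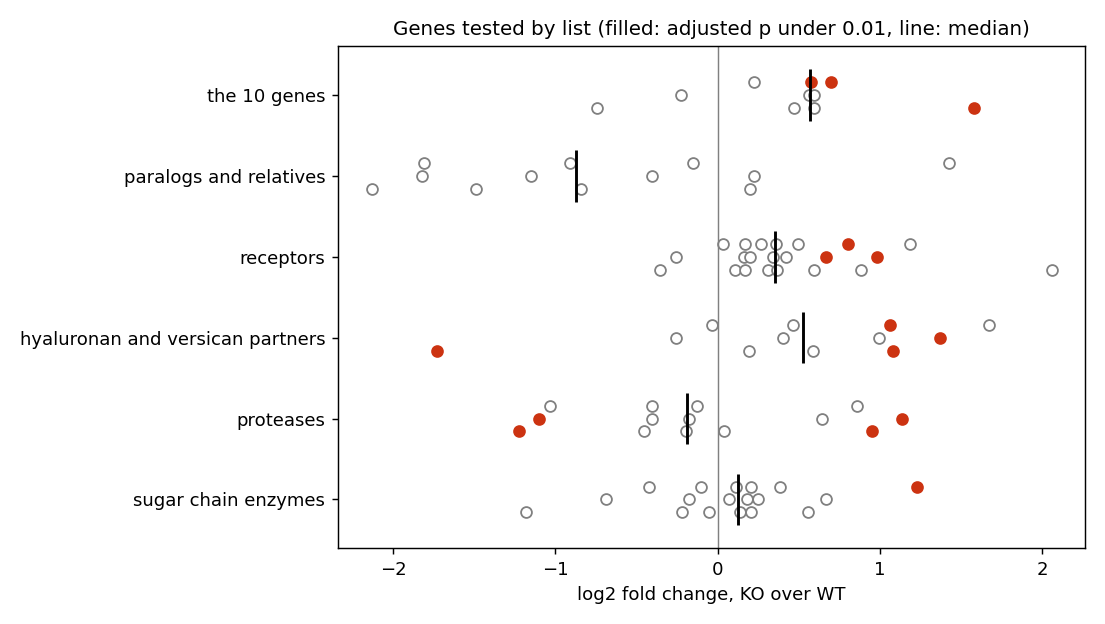
Log2 fold change of KO over WT (horizontal axis) of each gene tested, in the set of 10 and in the 5 lists of related genes, filled where the adjusted p was under 0.01 (edgeR), with a vertical line at the median of each list. Medians run from -0.88 in paralogs and relatives (-0.46 without KO replicate 3) to 0.57 in the set of 10 (0.61).

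Markers of cell types were summed in CPM to describe what else differed between the libraries. The fibroblast list (8 of 8 detected) summed to 21620 to 23320 in WT and to 21410, 26020 and 15690 in KO, most of it Col1a1 and Col1a2, and KO replicate 3 was low here as for Postn and Vcan. Within this list Thy1 fell, with a log2 fold change of -1.11 (adjusted p = 0.00251, edgeR). The values were -1.22 for Pdgfra (adjusted p = 0.0185), -1.13 for Lum (adjusted p = 0.119) and 0.29 for Vim (adjusted p = 0.0577). Col1a2 was at -0.41, Pdgfrb at 0.090, Dcn at 0.037 and Col1a1 at 0.018 (adjusted p of 0.226 to 0.9535, edgeR). Dcn was highest in KO replicate 3, at 162, 159 and 243 CPM in KO, and Vim and Pdgfrb were not lowest there. The smooth muscle and pericyte list was at 798 to 907 in WT and 1361, 1565 and 1894 in KO, highest in replicate 3 as for Thbs1, Thbs2 and Sparc. Acta2 carried it, at 951, 1111 and 1403 in KO, and was its one gene that passed, whereas Cspg4 (179, 184 and 78.8) and Myh11 (9.55, 10.4 and 5.86) were lowest in KO replicate 3. The macrophage list was at 42.0 to 85.6 in WT and 72.2, 43.9 and 222.5 in KO, with Lyz2 the most abundant gene. The part of these cells in the differences was not tested. Sums for the chondrocyte list, which shares Comp and Acan with the relatives, were 83.5 to 98.7 in WT and 99.5, 136 and 33.9 in KO. Those for the epithelial list were 54.6 to 58.4 and 77.0, 53.6 and 21.8, and for the endothelial list, carried by Tek, 48.5 to 59.1 and 67.3, 54.3 and 33.6. Epithelial genes moved apart, with Krt19 at 12.7 to 15.4 CPM in WT and 43.2, 29.7 and 18.4 CPM in KO. Its log2 fold change was 1.14, against -1.50 for Krt8, -1.30 for Krt18, -1.09 for Epcam and -0.28 for Cdh1, and none of these passed. The Schwann and neural crest list was at 7.45 to 9.11 in WT and 11.2, 18.6 and 11.1 in KO. The pluripotent list, with 5 of 6 genes in the table, was at 0.998 to 2.28 in WT and 0.476 to 0.907 in KO. Of these genes 4 were under 1 CPM in all 6 libraries, and most of the sum was Nanog. Nanog was at 0.903, 2.23 and 0.902 CPM in WT and 0.811, 0.617 and 0.286 CPM in KO, and did not pass (adjusted p = 0.125, edgeR). No marker in the table was at 0 in all 6 libraries.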

How the data were processed

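Paired-end, strand-specific poly(A) RNA-seq of 3 WT and 3 Rnf20 KO libraries on day 3 was analysed, with genotype and replicate number taken from the labels. The authors aligned reads to GRCm38/mm10 with HISAT2 2.1.0, per the labels' processing notes, and deposited raw counts per gene, made by a counting program that is not given in the sources used here. The authors also deposited FPKM values from Cufflinks 2.1.1 for 12633 genes. The authors also deposited log2 fold changes of KO over WT and FDR-adjusted p-values, by a test not given in the sources used here, and neither was used. The counts beside the FPKM equal those of the count table (75798 of 75798 values).

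With R 4.3.3 and edgeR 4.0.16, counts were scaled by TMM, filtered with filterByExpr (13386 of 16982 genes left) and genotypes were tested by quasi-likelihood with no covariate, with Benjamini-Hochberg adjustment over all genes tested. Genes pass at an adjusted p under 0.01. SE is the absolute log2 fold change over the square root of F, and log2 CPM were computed with 2 counts added. The common dispersion of the counts was 0.0353. Depth sets a floor of 3 counts, a limit on counting error alone. The main edgeR fit, edgeR's exact test, the replicate block, the length correction and DESeq2 were tested on simulated data. The simulation gave all libraries the same spread, so it held no library that stood apart. Limma on FPKM and the other fits, those with a library left out among them, were not tested this way. Alternatives were RLE size factors, unscaled library sizes, other count filters, DESeq2 1.42.0, edgeR's exact test, an adjusted p of 0.05, a replicate block, a gene length correction (loess, span 0.5), limma 3.58.1 on log2(FPKM + 1), and each library left out.

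The 10 genes, the lists and the tests were chosen with earlier results of these data known. Named were the 10 genes, Rnf20, in each list the genes that passed (at most 4 per direction by adjusted p) and its defining members, and the 3 nearest profiles of 6 of the 10 genes. A result under this rule is left out here. Sequence windows came from RefSeq for GRCm38.p6 and positions from GENCODE M21.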

Additional observations from a re-analysis of the deposited data

How the results depend on the processing

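The 10 genes gave 3 higher and 0 lower under RLE size factors, unscaled library sizes and both other count filters. DESeq2 gave 4 higher and 1 lower of the 10, 19 and 7 of the related genes, and 1842 and 1755 of all genes. The exact test of edgeR gave 4 higher and 0 lower of the 10, 15 and 4 of the related genes, and 1420 and 1485 of all. At an adjusted p under 0.05 the 10 genes gave 4 higher and 1 lower, the related genes 20 and 7, and all genes 2195 and 2218. The length correction gave 4 higher and 0 lower of the 10, with 813 and 713 of all genes. Limma on FPKM gave 2 and 0 of the 10, with 490 and 578 of all.

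Leaving out single libraries, the 10 genes gave 0 to 7 higher and 0 to 1 lower, the related genes 0 to 25 and 0 to 12, and all genes 0 to 2222 and 1 to 2263. The highest values came without KO replicate 3 and the lowest without a WT library. Without WT replicate 3, where 0 of all genes were higher by edgeR's quasi-likelihood test, 2356 were at an unadjusted p under 0.05, 4 of the 10 among them. The log2 fold change of Postn ran from -0.53 to 0.013, positive without KO replicate 3 only, and that of Vcan from -0.11 to 0.59, negative without KO replicate 2 only. The cause was not tested.

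Leaving out a library for shares and ratios was an alternative chosen after seeing the data. The KO over WT share of counts was 1.59 to 1.72. The KO over WT mean ratio was 1.84 to 2.16 for Thbs1 to Thbs2, 0.529 to 0.605 for Postn to Fn1, 0.919 to 1.15 for Tnc to Fn1 and 0.912 to 1.32 for Sparc to Fn1, the last 2 below 1 without KO replicate 3 only.

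Replicate numbers are shared between genotypes. The deviations of same-numbered libraries from their genotype means had correlations of -0.0656, 0.0366 and 0.0109, and not every library correlated best with its own. Deviations from a mean of 3 libraries depend on each other, and KO replicate 3 stood apart. These correlations therefore cannot decide whether same-numbered libraries were paired. With the replicate block, 0 genes passed in either direction among all genes, the 10 and the related genes. At an unadjusted p under 0.05 the block gave 2694 higher and 2858 lower over all genes, 5 and 1 of the 10, and 23 and 13 of the related genes.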
